A study of Mus musculus with 12 samples.

Results

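The ductular and cholangiocyte markers described here are 9 genes, Krt7, Krt19, Krt23, Epcam, Sox9, Sox4, Prom1, Cd24a and Cftr, taken by symbol from the 55357 genes of a mouse liver RNA-seq count table. They were followed over 4 groups of male C57BL/6J mice that all carried floxed PPARα alleles. WT mice (PPARa fl/fl AlbuminCre +/+) had no Cre, and KO mice (PPARa fl/fl AlbuminCre Tg/+) carried Cre driven by the albumin promoter. The study describes this knockout as specific to hepatocytes. Whether the duct cells of KO liver keep the gene was not tested here. Both genotypes received chow or CDAHFD, a high-fat diet that lacks choline and holds defined L-amino acids in place of protein, for 6 weeks from 7 weeks of age, and livers were taken at 13 weeks. There were 4 WT chow, 3 WT CDAHFD, 2 KO chow and 3 KO CDAHFD libraries of whole liver. The study's text gives other numbers of mice for some groups, which was not resolved here, so samples were grouped by their labels.

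Cholangiocytes are the epithelial cells that line the bile ducts. Unlike hepatocytes, they carry the simple keratins Krt7 and Krt19, the adhesion molecule Epcam and the chloride channel Cftr, and they depend on the transcription factor Sox9. In chronic liver injury, small ducts and progenitor-like cells multiply around the portal tracts, which is called the ductular reaction, and injured hepatocytes can themselves take on Sox9 and other biliary genes. A liver homogenate holds all of these cells, so more cells of a type and more RNA per cell cannot be told apart in any value below.

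The promoters of the members differ in base composition. RefSeq (GRCm38.p6) held promoters of 6 members, Krt7, Krt23, Epcam, Sox4, Prom1 and Cftr, each 300 bases long, with 250 before and 50 after the start site. The following 4 are shown for the levels and changes of their genes. Epcam had the highest mean level per kilobase of exon under CDAHFD, and Cftr the largest fold change. Krt23 and Prom1 had the smallest diet difference in KO liver. Capitals mark matches to short motifs searched on both strands.
Epcam, chr17:87635729-87636028 (+ strand): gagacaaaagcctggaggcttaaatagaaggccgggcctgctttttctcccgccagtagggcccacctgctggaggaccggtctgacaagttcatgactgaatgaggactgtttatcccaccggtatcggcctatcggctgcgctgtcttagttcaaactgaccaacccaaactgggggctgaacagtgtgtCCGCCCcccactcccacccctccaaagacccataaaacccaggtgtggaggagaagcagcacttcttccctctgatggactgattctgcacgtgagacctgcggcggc
Cftr, chr6:18170437-18170736 (+ strand): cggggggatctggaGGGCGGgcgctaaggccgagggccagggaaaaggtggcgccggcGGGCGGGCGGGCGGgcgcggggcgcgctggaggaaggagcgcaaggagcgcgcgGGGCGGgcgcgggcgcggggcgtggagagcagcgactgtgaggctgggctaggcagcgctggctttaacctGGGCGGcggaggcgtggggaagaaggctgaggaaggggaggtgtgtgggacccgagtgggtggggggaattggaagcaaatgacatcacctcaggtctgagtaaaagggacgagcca
Krt23, chr11:99493071-99493370 (- strand): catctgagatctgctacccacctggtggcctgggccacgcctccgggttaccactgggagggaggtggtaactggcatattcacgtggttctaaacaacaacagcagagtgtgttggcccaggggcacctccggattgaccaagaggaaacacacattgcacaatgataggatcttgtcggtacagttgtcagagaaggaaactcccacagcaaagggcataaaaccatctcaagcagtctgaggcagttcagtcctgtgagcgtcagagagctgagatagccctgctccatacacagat
Prom1, chr5:44101687-44101986 (- strand): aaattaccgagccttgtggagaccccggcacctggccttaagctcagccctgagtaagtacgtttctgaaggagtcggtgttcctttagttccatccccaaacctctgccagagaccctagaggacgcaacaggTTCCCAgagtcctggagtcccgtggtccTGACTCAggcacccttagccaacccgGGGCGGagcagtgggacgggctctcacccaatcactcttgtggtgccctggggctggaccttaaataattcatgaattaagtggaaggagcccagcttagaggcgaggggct

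The capitals, or their reverse complements, are a GC box (GGGCGG), an AP-1 site (TGANTCA) or an RBPJ core (TGGGAA), which is the site bound by the nuclear effector of Notch. Cftr had a GC content of 71.3% and 6 GC boxes, some of them in an unbroken run, while the median promoter of all 32851 had 52.7% GC. The Epcam promoter, with 57.0% GC, held a single GC box, 58 bases before the start. The Prom1 promoter shown held an RBPJ core, an AP-1 site and a GC box at 116, 88 and 62 bases before the start, a second Prom1 start (chr5:44094719-44095018) held an AP-1 site alone, 189 bases before it, and Krt23 held none of the motifs searched. GC boxes were present in 4 of the 6 members with a promoter and in 35.7% of all promoters, RBPJ cores in 2 members and 25.6%, AP-1 sites in 1 member and 7.81%, and the TEAD core GGAATG in 1 member (Sox4) and 14.7%. The HNF6 core ATTGAT, the SOX core ACAAAG, the TATA box TATAAA and the PPAR DR1 site (AGGTCA repeated with 1 base between) matched no member and 7.54%, 18.7%, 13.6% and 0.0396% of all promoters. A match describes these letters in this window and is not a measured binding site.

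Libraries held between 29906785 and 43551003 counts, with a median of 36989922, and 17358 genes passed the filter on low counts, all 9 members among them. Levels are given as CPM, counts divided by the TMM-scaled library size and multiplied by 1000000. Ppara, the targeted gene, ran from 96.2 to 238 CPM in WT chow and 59.5 to 75.5 in WT CDAHFD, against 14.4 to 38.7 in KO chow and 20.7 to 51.9 in KO CDAHFD. WT chow libraries differed in their clock genes, with a score (the mean z of Arntl, Npas2 and Clock minus that of 9 genes of the opposite phase) of 1.95, 1.81, -1.85 and -2.10, and KO CDAHFD replicate 3 lay at -3.08. The hepatocyte markers Alb and Ttr were abundant in every group, with group means of at least 35700 CPM for Alb and 2680 for Ttr.

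All 9 ductular markers were lowest on average in WT chow liver. In KO chow, 8 of the 9 rose against WT chow (all but Sox9), by log2 fold changes of 1.33 to 3.24, where 22.0% of all tested genes rose. In WT CDAHFD all 9 rose, by 1.28 for Krt23 to 4.25 for Cftr, beside 26.1% of tested genes. In KO CDAHFD all 9 rose again, by 1.52 for Sox9 to 4.67 for Cftr, beside 26.9%. A gene is said to rise or fall when edgeR's quasi-likelihood test gave an adjusted p under 0.05 over all tested genes. The median log2 fold change of the members was 2.26 for KO chow, 2.46 for WT CDAHFD and 3.21 for KO CDAHFD, and that of all tested genes was 0.00, -0.05 and -0.04. These comparisons share the same 4 WT chow libraries, so they are not independent of each other.

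Library values separated in the same way. In KO chow, 7 of the 9 members had both libraries above every WT chow library (27.2% of tested genes did), with Krt19 and Sox9 as the exceptions. All 9 members were above every WT chow library in WT CDAHFD (28.0% of tested genes) and in KO CDAHFD (26.7%). Summed over the 9 members, WT chow libraries had 16.4 to 29.0 CPM and KO chow libraries 81.1 to 103, and the CDAHFD libraries had 96.6 to 123 (WT) and 143 to 190 (KO), so that the KO chow and WT CDAHFD ranges overlapped.

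**Figure D1:**
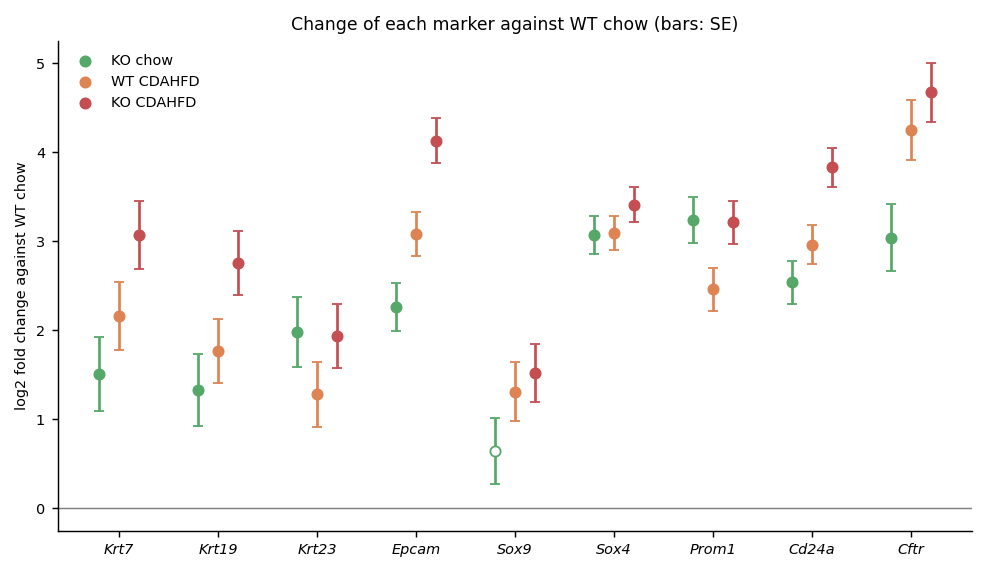
The log2 fold change of each marker against WT chow is plotted for KO chow (green), WT CDAHFD (orange) and KO CDAHFD (red), with bars for the SE and open points for an adjusted p of 0.05 or more. Every point lies above 0, Sox9 in KO chow is the only open one, at 0.65, and Cftr reaches the highest value, 4.67 in KO CDAHFD.

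Keratins form the intermediate filaments of epithelia, and Krt7 and Krt19 are the usual stains for bile ducts. Krt7 (ENSMUSG00000023039, chr15:101411043-101430313, plus strand, GRCm38) measured 0.815, 1.10, 0.233 and 0.780 CPM in livers of WT chow, 2.99 and 1.21 in KO chow, 3.40, 3.46 and 2.99 in WT CDAHFD, and 5.55, 6.23 and 6.71 in KO CDAHFD. The groups rank from WT chow to KO CDAHFD, and every KO CDAHFD library was above every library of the other groups, while the KO chow libraries differed from each other by a ratio of 2.47. Gm671, a gene on the opposite strand, shares 77 exonic bases with Krt7 and held 2.05% of its count. Against WT chow its log2 fold change was 1.51 for KO chow (SE 0.42, adjusted p = 0.0131), 2.16 for WT CDAHFD (SE 0.38, adjusted p = 0.000421) and 3.07 for KO CDAHFD (SE 0.38, adjusted p = 2.22e-05).

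Krt19 (ENSMUSG00000020911, chr11:100140810-100148665, minus strand), the partner of Krt7 in duct epithelium, measured 2.68, 1.57, 0.867 and 1.10 CPM in WT chow, against 5.60 and 2.23 in KO chow, 5.82, 5.69 and 4.35 in WT CDAHFD, and 8.97, 11.7 and 11 in KO CDAHFD. KO chow replicate 2 lay below the highest WT chow library, so these groups overlapped, and the KO chow replicates differed by a ratio of 2.51. Krt19 rose by 1.33 with the loss of PPARα (SE 0.40, adjusted p = 0.0181), by 1.77 with the diet (SE 0.36, adjusted p = 0.0012) and by 2.76 with both (SE 0.36, adjusted p = 3.42e-05). The KO chow calls of both keratins rest on KO chow replicate 1, since without it Krt7 differed by 0.74 (adjusted p = 0.305) and Krt19 by 0.54 (adjusted p = 0.428), and 6 members remained called.

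Krt23 (ENSMUSG00000006777, chr11:99477974-99493137, minus strand), an acidic keratin known to be induced in injured liver and to mark ductular cells, had a different order. It measured 0.854, 3.75, 2.23 and 1.56 CPM in WT chow, against 6.96 and 9.85 in KO chow, 5.12, 5.55 and 4.81 in WT CDAHFD, and 7.85, 10.6 and 6.09 in KO CDAHFD. The KO libraries of either diet lay above all WT CDAHFD libraries, and the KO groups overlapped each other. Against WT chow, KO chow was higher by 1.98 (SE 0.39, adjusted p = 0.00142), WT CDAHFD by 1.28 (SE 0.36, adjusted p = 0.00936) and KO CDAHFD by 1.94 (SE 0.36, adjusted p = 0.000556).

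**Figure D2:**
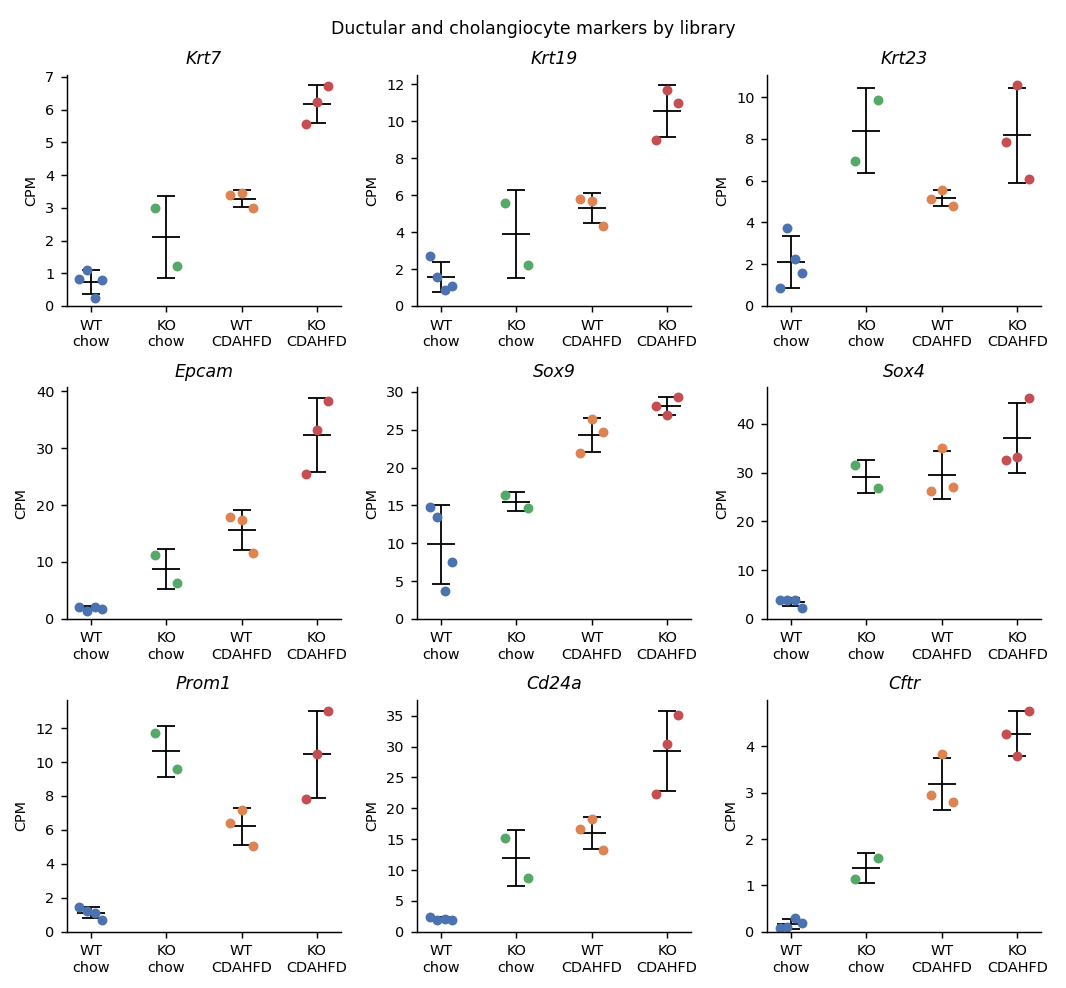
Each panel gives the CPM of a marker in every library (points) of WT chow (n = 4), KO chow (n = 2), WT CDAHFD (n = 3) and KO CDAHFD (n = 3), with the group mean and SD as a long bar and whiskers. Epcam, Cd24a, Krt7 and Krt19 are highest in KO CDAHFD, whereas Prom1 and Krt23 are about as high in KO chow as in KO CDAHFD.

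The surface proteins of biliary and progenitor cells gave larger changes than the keratins. Epcam (ENSMUSG00000045394, chr17:87635979-87651129, plus strand), the epithelial adhesion molecule found on ducts and absent from mature hepatocytes, measured 2.10, 1.35, 2.13 and 1.79 CPM in WT chow, against 11.3 and 6.33 in KO chow, 17.9, 17.3 and 11.6 in WT CDAHFD, and 25.4, 33.2 and 38.3 in KO CDAHFD. No group overlapped another, and the order was WT chow, KO chow, WT CDAHFD and KO CDAHFD. Its level was 4.78-fold that of WT chow in KO chow (log2 2.26, SE 0.27, adjusted p = 3.24e-05), 8.47-fold in WT CDAHFD (log2 3.08, SE 0.25, adjusted p = 6.57e-07) and 17.5-fold in KO CDAHFD (log2 4.13, SE 0.25, adjusted p = 7.78e-08).

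Cd24a (ENSMUSG00000047139, chr10:43578284-43584265, plus strand), a small glycoprotein on progenitor and duct cells that is also found on some leukocytes, followed Epcam closely. It measured 2.37, 1.86, 2.13 and 1.88 CPM in WT chow, against 15.2 and 8.75 in KO chow, 16.7, 18.2 and 13.2 in WT CDAHFD, and 22.3, 30.4 and 35.2 in KO CDAHFD. Only KO chow and WT CDAHFD overlapped, through KO chow replicate 1, which lay between the WT CDAHFD libraries. Cd24a rose by 2.54 for KO chow (SE 0.24, adjusted p = 4.72e-06), by 2.96 for WT CDAHFD (SE 0.22, adjusted p = 3.59e-07) and by 3.83 for KO CDAHFD (SE 0.22, adjusted p = 5.77e-08).

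Prom1 (ENSMUSG00000029086, chr5:43993620-44102032, minus strand) encodes prominin-1, the CD133 antigen of progenitor cells. It measured 1.44, 1.23, 1.10 and 0.688 CPM in WT chow, against 11.7 and 9.58 in KO chow, 6.41, 7.17 and 5.05 in WT CDAHFD, and 7.85, 10.5 and 13 in KO CDAHFD. Both KO chow libraries lay above every WT CDAHFD library and inside the KO CDAHFD range. Its rise was 9.43-fold in KO chow (log2 3.24, SE 0.26, adjusted p = 1.42e-06), 5.52-fold in WT CDAHFD (log2 2.46, SE 0.24, adjusted p = 3.53e-06) and 9.28-fold in KO CDAHFD (log2 3.21, SE 0.24, adjusted p = 3.71e-07). Stretches of Prom1 transcripts align at 95% identity or more, over at most 324 bases, to transcripts of other loci, so a few of its reads may be uncertain.

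Sox9 and Sox4 are related transcription factors that act together in bile duct formation. Sox9 (ENSMUSG00000000567, chr11:112782224-112787760, plus strand) measured 14.8, 13.4, 3.63 and 7.52 CPM in WT chow, against 16.4 and 14.6 in KO chow, 21.9, 26.4 and 24.7 in WT CDAHFD, and 28.2, 27.0 and 29.3 in KO CDAHFD. WT chow replicates 1 and 2, which had positive clock scores, were near the level of KO chow replicate 2, and replicates 3 and 4, with negative scores, were lower. Other groups did not follow this order. KO chow replicate 2 itself had a score of -0.845, and KO CDAHFD replicate 3, with the lowest score of all, had the highest Sox9 level, 29.3 CPM. The KO chow difference of 0.65 (SE 0.37, 95% interval -0.06 to 1.37, adjusted p = 0.179) did not pass the test, nor did it with the clock score in the model, where it was 0.72 (adjusted p = 0.0627), but it passed with library size as the only scaling, at 1.04 (adjusted p = 0.0421). Under CDAHFD, Sox9 rose by 1.31 in WT (SE 0.33, adjusted p = 0.00491) and by 1.52 in KO liver (SE 0.33, adjusted p = 0.00177).

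Sox4 (ENSMUSG00000076431, chr13:28948919-28953713, minus strand) measured 3.88, 3.87, 3.77 and 2.25 CPM in WT chow, against 31.5 and 26.8 in KO chow, 26.3, 35.1 and 27.1 in WT CDAHFD, and 32.5, 33.2 and 45.3 in KO CDAHFD. The lowest library outside WT chow was thus far above the highest within it, and both KO chow libraries lay within the WT CDAHFD range. Sox4 was 8.40-fold higher in KO chow (log2 3.07, SE 0.21, adjusted p = 4.15e-07), 8.51-fold in WT CDAHFD (log2 3.09, SE 0.19, adjusted p = 1.02e-07) and 10.7-fold in KO CDAHFD (log2 3.41, SE 0.20, adjusted p = 5.16e-08). The libraries carry no strand, and 2616 exonic bases of Sox4 are shared with the opposite-strand gene Gm26735. That gene is absent from the count table, so reads of the pair cannot be told apart.

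Cftr (ENSMUSG00000041301, chr6:18170687-18322768, plus strand), the chloride channel through which cholangiocytes secrete into bile, was the rarest member. WT chow libraries held 2, 3, 9 and 4 counts, or 0.0776, 0.0944, 0.300 and 0.183 CPM. Levels were 1.14 and 1.6 CPM in KO chow, 2.95, 3.83 and 2.80 in WT CDAHFD, and 4.27, 3.80 and 4.76 in KO CDAHFD. Every KO chow library was below every library on CDAHFD, while both CDAHFD groups overlapped. Pooled counts put the level at 8.41 times that of WT chow in KO chow (exact 95% counting interval 5.08 to 14.7), 19.5 times in WT CDAHFD (12.2 to 33.2) and 26.1 times in KO CDAHFD (16.3 to 44.3). The model gave a log2 fold change of 3.04 for KO chow (SE 0.38, adjusted p = 4.47e-05), of 4.25 for WT CDAHFD (SE 0.34, adjusted p = 5.66e-07) and of 4.67 for KO CDAHFD (SE 0.33, adjusted p = 2.44e-07).

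Levels of different genes are compared per kilobase of exon (RPKM, CPM divided by exon length). Sox9 was the highest member in WT chow at 2.38 ± 1.26 RPKM (SD, n = 4), followed by Krt23 at 1.34 ± 0.789, Epcam at 0.840 ± 0.165, Krt19 at 0.838 ± 0.434, Cd24a at 0.798 ± 0.0933 and Sox4 at 0.718 ± 0.166, and no neighbours in this order differed beyond their SD. In KO chow the highest were Sox4 at 6.08 ± 0.681 and Krt23 at 5.37 ± 1.30 (n = 2), which overlap within their SD. Epcam led both CDAHFD groups, at 7.11 ± 1.57 RPKM in WT CDAHFD and 14.7 ± 2.97 in KO CDAHFD (n = 3 each), ahead of Cd24a at 6.21 ± 1.0 and 11.4 ± 2.53, and these neighbours overlap within their SD. Prom1, Krt7 and Cftr held the lowest places in that order in all 4 groups.

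On the same CDAHFD, all 9 markers had a higher fitted level in KO than in WT liver, but none passed the test over all genes. The log2 differences were 1.05 for Epcam (SE 0.24, adjusted p = 0.121), 1.0 for Krt19 (SE 0.36, adjusted p = 0.413), 0.91 for Krt7 (SE 0.36, adjusted p = 0.488), 0.87 for Cd24a (SE 0.21, adjusted p = 0.154), 0.75 for Prom1, 0.66 for Krt23, 0.42 for Cftr, 0.33 for Sox4 and 0.21 for Sox9. Only 0.0864% of all tested genes rose in this comparison. At an unadjusted p under 0.05 there were 5 members, and the share of all genes at that threshold was not counted. DESeq2 called 2, Epcam (adjusted p = 0.00733) and Cd24a (adjusted p = 0.024), as did edgeR without the filter on low counts. In either direction, DESeq2 called 245 of 17358 genes and edgeR without the filter 215 of 30104, against 62 of 17358 with the filter. Library values of 7 members did not overlap, with all 3 KO CDAHFD libraries above all 3 WT CDAHFD libraries for each except Sox4 and Cftr, whereas 9.47% of all tested genes were higher without overlap. The median difference of the members was 0.75, against 0.01 for all tested genes.

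Within KO liver, CDAHFD raised 3 markers further, Epcam by 1.88 (SE 0.29, adjusted p = 0.00361), Cftr by 1.63 (SE 0.32, adjusted p = 0.0136) and Cd24a by 1.29 (SE 0.25, adjusted p = 0.012), where 3.76% of tested genes rose. Krt7 differed by 1.56 (adjusted p = 0.051), Krt19 by 1.43 (adjusted p = 0.0632), Sox9 by 0.86 (adjusted p = 0.215) and Sox4 by 0.34 (adjusted p = 0.374). Prom1, at -0.02 (95% interval -0.53 to 0.48), and Krt23, at -0.04 (95% interval -0.83 to 0.75), had group means that were nearly equal. The other 7 members had all KO CDAHFD libraries above both KO chow libraries, as did 19.9% of tested genes. With 2 KO chow libraries the calls move with each. Only Epcam remained called without KO chow replicate 2, where Cd24a was at 0.94 (adjusted p = 0.0843) and Cftr at 1.90 (adjusted p = 0.0523), and without KO chow replicate 1 Cftr was at 1.44 (adjusted p = 0.13). The count was 6 without WT chow replicate 3 and 5 without WT chow replicate 1. Over all genes, 1091 and 1437 were called in those fits, against 1075 with every library.

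KO on chow and WT on CDAHFD, where either the gene or the diet alone differs from WT chow, were also compared directly. Cftr was lower in KO chow by a log2 difference of -1.21 (SE 0.32, adjusted p = 0.0449), the 1 member that passed, where 3.42% of tested genes were lower. That call was lost when any 1 of 7 libraries was left out, namely any of WT CDAHFD or KO chow and KO CDAHFD replicates 1 and 2 (adjusted p up to 0.299). Epcam differed by -0.83 (adjusted p = 0.0918), Prom1 by 0.77 (adjusted p = 0.0902), Krt23 by 0.70 (adjusted p = 0.308) and Sox4 by -0.02 (95% interval -0.44 to 0.40). Prom1 and Krt23 were the 2 members with KO chow above WT CDAHFD in every library (24.5% of tested genes), and Krt7, Epcam, Sox9 and Cftr the 4 with KO chow below in every library (24.1%). For Krt7 the gap was smaller than the digits given, with KO chow replicate 1 and WT CDAHFD replicate 3 both at 2.99 CPM.

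The interaction, which is the diet change in KO minus the diet change in WT, was negative in all 9 members and passed the test in 5, beside 14.5% of tested genes with a negative call. Sox4 rose by 3.09 with the diet in WT and differed by 0.34 in KO (interaction -2.75, SE 0.28, adjusted p = 3.11e-05). Cftr had -2.62 (SE 0.47, adjusted p = 0.0015), Prom1 -2.49 (SE 0.35, adjusted p = 0.000279), Cd24a -1.67 (SE 0.32, adjusted p = 0.00245) and Epcam -1.21 (SE 0.36, adjusted p = 0.0297). Krt23, at -1.32 (SE 0.53, adjusted p = 0.0971), Krt7, at -0.60 (SE 0.56), Sox9, at -0.44 (SE 0.51), and Krt19, at -0.33 (SE 0.54), did not pass. On the log scale the gene and the diet together thus gave less than the sum of each alone for these 5 members, although the level in KO CDAHFD was the highest mean for every called member except Prom1. The Epcam call was lost without any 1 of 7 libraries, among them KO chow replicate 1, where the interaction was -0.74 (adjusted p = 0.213).

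**Figure D3:**
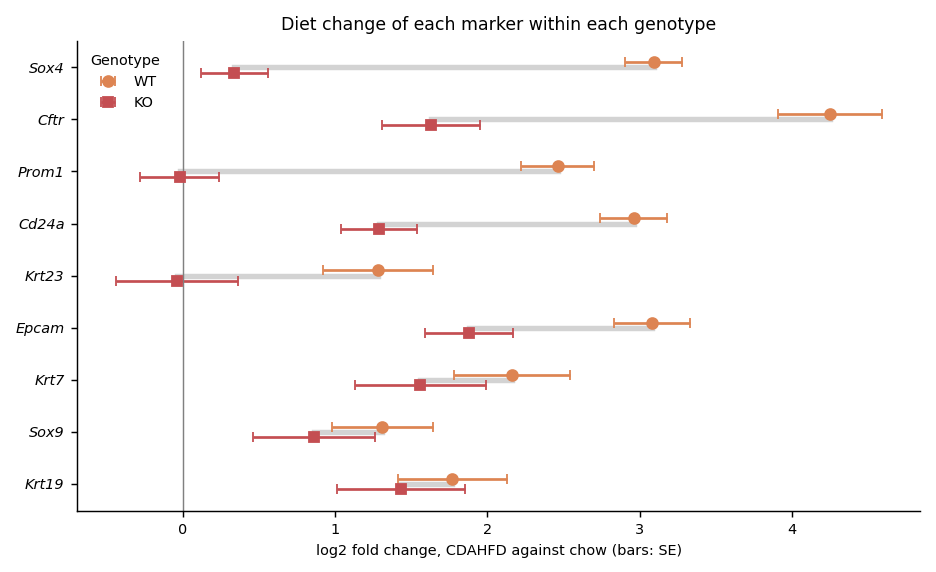
For each marker the log2 fold change of CDAHFD against chow is drawn in WT (circles) and KO (squares), with bars for the SE, and a grey line joins them, so that its length is the interaction. The line is longest for Sox4, from 3.09 to 0.34, and shortest for Krt19, from 1.77 to 1.43.

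Other genes of the biliary epithelium moved like the members. Of 22 such genes, 19 rose in KO livers on chow (median 2.08), and CDAHFD raised 19 in WT (median 3.11) and 20 in KO livers (median 3.74) above WT chow. The shares of all tested genes that rose were 22.0%, 26.1% and 26.9%. Cldn4, a claudin of tight junctions, rose by 3.60, 4.68 and 5.28, Mmp7, a protease secreted by injured ducts, by 4.12, 5.53 and 7.08, and Elf3, an epithelial transcription factor, by 3.72, 4.45 and 4.21. The Mmp7 value of KO chow rests mostly on 1 of its libraries, at 1.85 CPM beside 0.194 in the other. Cldn3, a claudin that hepatocytes also carry, differed by -0.05, -0.03 and 0.17 and passed in none of these comparisons. Genes of duct secretion rose in 5, 6 and 6 of 9 tested, with Kcnn4, a potassium channel, at 2.74, 4.85 and 4.78, Slc5a1, a glucose transporter, at 1.65, 2.28 and 2.99, and Ano1, a chloride channel, at 1.21, 1.72 and 2.27. Aqp1 (-0.34, -0.81 and -0.55), Slc4a2 (-0.24, -0.03 and -0.15) and Slc12a2 (-0.16, -0.21 and -0.24) passed in none of these comparisons. Sctr, the secretin receptor of cholangiocytes, had no count in WT chow and was at least 11.5-fold higher in WT CDAHFD, taking 3 counts over the 4 WT chow libraries as the floor (0.0274 CPM). The KO chow libraries had 0.0272 and 0.194 CPM of Sctr, the lower of which was not above that floor.

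Genes of the primary cilium, which cholangiocytes carry and hepatocytes do not, moved less. Their median log2 fold change was 0.04 for KO chow, 0.14 for WT CDAHFD and 0.53 for KO CDAHFD. In KO chow 1 of 9 rose, Kif3a, a motor of ciliary transport, by 0.90 (adjusted p = 0.0013), while Pkhd1, the gene of fibrocystin, differed by -0.13 (adjusted p = 0.622). In WT CDAHFD 4 rose, with Pkhd1 at 0.99 and Kif3a at 1.17, and in KO CDAHFD 5 rose, with Pkhd1 at 1.58. Among all tested genes, 22.0%, 26.1% and 26.9% rose in these comparisons. Of 51 other keratins 6 passed the filter, and 5 of them rose in each comparison with WT chow. Krt8, which pairs with Krt18 in hepatocytes and ducts alike, rose by 1.91, 2.07 and 1.86, and Krt18 by 1.37, 1.26 and 1.13. These hepatocyte-shared keratins, like all 9 members, did not pass between KO CDAHFD and WT CDAHFD, at -0.21 (adjusted p = 0.705) and -0.13 (adjusted p = 0.901).

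Pathways known to drive duct fate were mixed. Among all tested genes, 22.0% rose and 17.0% fell in KO chow, 26.1% and 25.0% in WT CDAHFD, and 26.9% and 25.4% in KO CDAHFD. Of 19 genes of YAP and TEAD signalling, 9 rose and 3 fell in KO chow, and 13 rose and 2 fell with CDAHFD in either genotype. Their target Ankrd1 rose by 1.70, 2.97 and 3.84 and Axl by 1.72, 2.09 and 1.98, whereas Yap1 itself differed by -0.21 (adjusted p = 0.157) in KO chow and fell by 0.31 and 0.46 under CDAHFD in WT and KO. The KO chow libraries had 0.485 and 2.88 CPM of Ankrd1, the lower inside the WT chow range of 0.229 to 0.932, so its KO chow value rests on 1 library. Of 14 Notch genes 5 rose in KO chow, 7 rose and 1 fell in WT CDAHFD, and 8 rose and 1 fell in KO CDAHFD. The target Hey1 rose by 2.16, 2.43 and 2.56 and the duct-specifying ligand Jag1 by 0.65, 1.38 and 1.45, while Dll4, an endothelial ligand, differed by 0.12 (adjusted p = 0.703) in KO chow and by -1.45 and -0.93 under CDAHFD. Of 11 tested growth signals to ducts, 6 rose and 2 fell in KO chow, 8 and 2 in WT CDAHFD, and 7 and 2 in KO CDAHFD. Areg, an EGF receptor ligand without a count in WT chow, was higher by at least 54.7-fold in KO chow, 90.5-fold in WT CDAHFD and 94.8-fold in KO CDAHFD, and Lif rose by 4.31, 5.62 and 5.17, whereas the EGF receptor gene Egfr differed by -2.32, -2.52 and -2.29, all past the test.

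**Figure D4:**
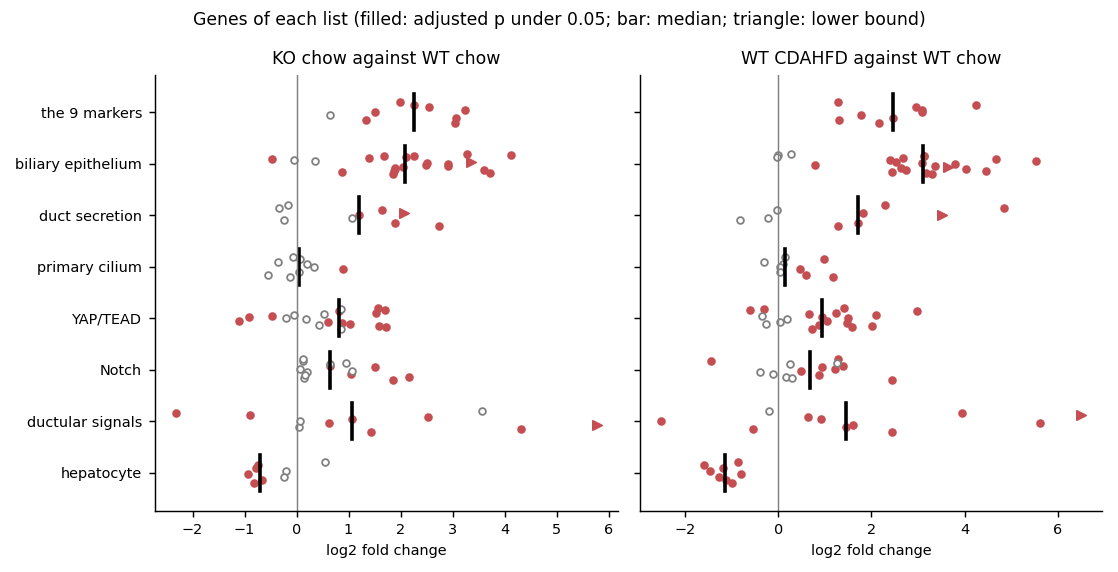
The log2 fold change of every tested gene of 8 lists is drawn for KO chow (left) and WT CDAHFD (right) against WT chow, filled where the adjusted p is under 0.05, with a bar at the list's median and triangles at the lower bound of genes with no count in WT chow. The 9 markers and the biliary epithelium lie mostly above 1, the cilium genes lie around 0, and the hepatocyte genes below 0 in WT CDAHFD.

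Hepatocyte markers moved the other way. None of 8 rose, and 5 fell with KO chow, 8 with WT CDAHFD and 8 with KO CDAHFD, with Cps1, the urea cycle enzyme, at -0.82, -1.58 and -1.65 and Ttr, transthyretin, at -0.67, -1.47 and -1.22. Tat, tyrosine aminotransferase, was at 0.54 (adjusted p = 0.151) in KO chow, with 2420 and 2520 CPM against 1190 to 2120 in WT chow, and at -1.26 and -0.69 under CDAHFD. Other cell types also moved with the groups, where 22.0%, 26.1% and 26.9% of tested genes rose and 17.0%, 25.0% and 25.4% fell. Macrophage markers rose in 5 of 6 genes and stellate cell and fibroblast markers in 5, 5 and 6 of 8, the latter summing to 60.6 to 176 CPM in WT chow and 848 to 1820 across the other groups, and tested neutrophil markers rose in 5, 5 and 6 of 6. All 6 genes of cell division rose in each comparison, from 4.86 to 7.87 CPM in sum in WT chow to 62.3 to 207 elsewhere. T cell markers rose in 3, 2 and 3 of 5 and fell in 1 of 5 in each, erythroid markers rose in 1 of 5 tested in KO chow and fell in 1, 5 and 1, endothelial markers rose in none of 5 and fell in 0, 2 and 2, and none of 5 B cell markers passed. Clock genes fell in 1 of 12 in each. How far these cells contribute to the markers that they share with ducts, such as Cd24a and Sox4, was not tested.

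Markers of other epithelia were measured as well. Summed mesothelial markers had 1.63 to 5.38 CPM for WT and 1.79 to 6.69 for KO livers on chow, and 3.46 to 9.59 for WT and 3.34 to 3.76 for KO livers on CDAHFD, which is within the range of the lower members such as Krt7. Of 5, Wt1 passed the test under CDAHFD, at 1.90 (adjusted p = 0.00676) in WT and 1.63 (adjusted p = 0.0166) in KO, and none passed in KO chow. Pancreatic acinar markers summed to 0.145 to 1.24 CPM, and the 1 gene of 6 that passed the filter did not pass the test. The part of these cells in the markers was not tested.

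Across the 12 libraries, the genes with the profile most like each member, by Pearson r of log2 CPM, were in several cases other epithelial genes. For Epcam they were Muc1 (r = 0.996), an epithelial mucin, and Spint1 (r = 0.995), an inhibitor of epithelial proteases, and for Krt19 they were Ap1m2 (r = 0.986), an epithelial sorting adaptor, and Itgb6 (r = 0.985), an epithelial integrin. Cd24a was most like Tmem45a (r = 0.998) and Ak1 (r = 0.997), Sox4 most like Cgref1 (r = 0.995) and Tpm4 (r = 0.994), and Cftr most like Pls1 (r = 0.992), an actin bundler of microvilli, and Sestd1 (r = 0.990). Prom1 was most like Evc2 (r = 0.990) and Ift57 (r = 0.987), both genes of the primary cilium. Krt7 was most like C1qtnf7 and Tesc (r = 0.975 and 0.974), Krt23 most like Ctsl and Fmo4 (r = 0.961 and 0.960) and Sox9 most like Tchp and Zfp788 (r = 0.972 and 0.970). These values describe libraries that fall into 4 groups, so the differences between groups set most of their size.

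Around the group means, the markers did not vary as a single unit. Deviations of log2 CPM from the group mean went together for Epcam and Cd24a (r = 0.92), Sox4 and Prom1 (r = 0.89), Krt7 and Sox9 (r = 0.81) and Krt7 and Krt19 (r = 0.75), all over 12 libraries. Removing the group means leaves fewer free values than libraries, and the KO chow deviations mirror each other by construction. Cftr deviated against Sox9 (r = -0.88), Krt7 (r = -0.78) and Krt19 (r = -0.77), and its WT chow values rest on few counts. In KO chow the first replicate was above the second by a ratio of 2.51 for Krt19, 2.47 for Krt7, 1.78 for Epcam and 1.74 for Cd24a, but by 1.12 for Sox9, 1.17 for Sox4 and 1.22 for Prom1, and it was below for Cftr (0.714) and Krt23 (0.707).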

How the data were processed

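Poly-A selected RNA of whole liver was sequenced in 12 non-directional libraries. Per the labels, the authors checked reads with FastQC 0.11.5 and aligned them to GRCm38 with STAR 2.7.3a, and they deposited raw counts per Ensembl gene. The counting program, annotation release and strand setting are not given in the sources used here. Symbols, positions and exon lengths were taken from GENCODE M21, which held 94.08% of the identifiers. Groups came from the labels. The labels do not state outright that every library is a separate mouse, and p-values measure the spread between libraries, part of which may be technical.

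Genes were filtered with filterByExpr, scaled with TMM and tested with edgeR 4.0.16 (glmQLFit, glmQLFTest, a mean per group over the 12 libraries) in R 4.3.3, with Benjamini-Hochberg adjustment over 17358 genes and a threshold of 0.05. The edgeR test of each comparison with WT chow was first run on simulated counts. The other comparisons, the interaction and the alternatives were not. Replicate numbers did not pair the samples. The text names all 9 members, up to 3 called genes of each list with the largest change in WT CDAHFD (mean of at least 50 counts, no overlap between groups), Krt8 and Krt18, and the 2 genes most like each member. Cldn3, Sctr, Aqp1, Slc4a2, Slc12a2, Yap1 and Wt1 were added after their values were seen. A listed gene and a motif searched are not reported here. The members and lists were chosen with earlier results of these data known. DESeq2 1.42.0, other scalings, no filter, a clock covariate, a replicate block and leaving out each library were the alternatives. A counting interval or floor of 3 counts covers counting error only. The 95% intervals of log2 differences are normal approximations from the SE, which run too narrow with few libraries.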

Additional observations from a re-analysis of the deposited data

Results flagged for a closer look

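Sox4 in WT chow had a library far from the others, at 2.25 CPM beside 3.77 to 3.88, with a gap of 0.93 of the range; about 1 in 20 groups of 4 is picked out so by chance, and 9 were examined. Without that library, WT chow replicate 4, Sox4 still rose in KO chow, by a log2 fold change of 2.93.

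The response to CDAHFD differed between genotypes, by the interaction term of edgeR's quasi-likelihood test, for Sox4 (-2.75, adjusted p = 3.11e-05), Cftr (-2.62, adjusted p = 0.0015), Prom1 (-2.49, adjusted p = 0.000279), Cd24a (-1.67, adjusted p = 0.00245) and Epcam (-1.21, adjusted p = 0.0297), each with a smaller log2 increase in KO.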

How the results depend on the processing

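All 9 members stayed called in WT CDAHFD and in KO CDAHFD against WT chow under every alternative run, and 6 to 9 of them in KO chow, Sox9 being the ninth with library size scaling. Scaling by library size alone moved the median of all genes to 0.40, 0.51 and 0.57 in the 3 comparisons with WT chow, and those of the members to 2.66, 3.02 and 3.82. Between KO CDAHFD and WT CDAHFD, 2 members were called without the low-count filter and 2 by DESeq2, against 0. Between KO CDAHFD and KO chow the count of 3 became 5 with library size scaling, without the filter, by DESeq2 and with the clock covariate, and ran from 1 to 6 when a library was left out. Between KO chow and WT CDAHFD the count of 1 became 2 without the filter and 3 by DESeq2, and ran from 0 to 1 when a library was left out. Calls over all genes moved as well. Between KO CDAHFD and WT CDAHFD they went from 62 to 215 without the filter and 245 by DESeq2. Between KO CDAHFD and KO chow they went from 1075 to 1383, 1340, 1904 and 1522 in the settings named, in that order. Between KO chow and WT CDAHFD they went from 1063 to 1397 without the filter and 2081 by DESeq2.

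Replicate numbers did not pair the samples, since deviations of libraries with the same number correlated at -0.242 to 0.266. With the replicate block the count between KO chow and WT CDAHFD was 0, that of KO chow against WT chow 7, without Krt19 (1.06, adjusted p = 0.0648), and that of the interaction 4. Over all genes these comparisons called 731, 5433 and 3137 with the block, against 1063, 6763 and 4011 without it.

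Some differences near 0 changed sign. Between KO CDAHFD and KO chow, Krt23 was 0.154 with library size scaling, 0.036 with the replicate block and 0.000 with the clock covariate, and Prom1 was 0.190 with library size scaling and 0.013 with DESeq2's size factors and with DESeq2. Sox4 between KO chow and WT CDAHFD was 0.017 with the replicate block. Leaving out a library gave -0.270 to 0.228 for Krt23 and -0.214 to 0.146 for Prom1 between KO CDAHFD and KO chow, -1.252 to 0.083 for Krt19 and -0.146 to 0.125 for Sox4 between KO chow and WT CDAHFD, and -1.126 to 0.177 and -0.860 to 0.469 for the interaction of Krt7 and Krt19. The cause of these changes was not tested. Depth limits Cftr most, with 2 to 9 counts per WT chow library.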
